A study of Sus scrofa with 8 samples.

Results

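The potassium channel genes are here the 92 genes whose symbol in the deposited files begins with KCN, chosen by symbol alone, apart from KCNJ10, out of 35683 genes in all. They were followed in single-nucleus RNA sequencing of 8 retinas from 6 pigs, female Yucatan minipigs of 3 to 5 months, all given an intravitreal enzyme (Vitrase) 2 weeks before dosing and weekly methylprednisolone. The AAV animals received AAV2.7m8/CAG-GFP intravitreally at 5e11 vg per eye, a capsid variant of AAV2 that carries a GFP gene under the ubiquitous CAG promoter, and the vehicle animals received buffer. At week 2 (day 15) both eyes of 1 AAV animal and both eyes of 1 vehicle animal were sequenced, and at week 4 (day 24 or 28) 1 left eye each of 2 AAV and 2 vehicle animals. Week 2 therefore gives no spread between animals. Every group was also a separate batch in the labels, so batch and group cannot be told apart. Retinas held GFP-positive and GFP-negative nuclei together.

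Potassium channels set the resting potential of a cell, repolarise it after excitation and, in glia, clear the potassium that active neurons release. The voltage-gated families are tetramers whose pore subunits can be joined by silent subunits, which form no channel alone, and by cytoplasmic auxiliary subunits. Inward rectifiers and two-pore-domain channels carry the current near rest, and calcium-activated channels couple calcium entry to repolarisation. In the retina, photoreceptors, bipolar cells, ganglion cells, Müller glia, pericytes and the retinal pigment epithelium (RPE) are each known for a channel set of their own.

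The files held 388491 barcodes, and 4 lanes were run per retina with a depth of 121544835 to 173614051 UMIs (transcripts counted once by their molecular identifier) per retina. A filter on mitochondrial share kept 350537 nuclei. Of these, 265289 (75.7%) were given a class by 102 marker genes that include no channel gene, and 28418 with markers of a second class were left out. The rule that turns markers into a class was settled after marker levels, but not channel levels, had been seen. Of the gated nuclei 12.4% lay within 2 times the margin of the gate, and 17084 of 368982 barcode sequences occurred in more than 1 retina. EGFP gave 3822 to 9240 UMIs per retina in the 4 AAV retinas and at most 1 UMI in the vehicle retinas. Levels are given as CPM, the UMIs of a gene per 1000000 UMIs of all nuclei of 1 class in 1 retina. They compare classes and groups within a gene and not one gene with another, since transcripts were counted from the 3′ end without regard to length.

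The channel genes made up 0.890% to 1.44% of all UMIs of a retina. The lowest shares were those of the 2 AAV retinas at week 4 (1.00% and 0.890%), against 1.29% and 1.37% in the vehicle retinas of that week, 1.39% and 1.44% in the AAV eyes and 1.31% and 1.34% in the vehicle eyes at week 2. Gated rods numbered more in the week 4 AAV retinas (21973 and 25543 nuclei against 14244 and 8247) and gated Müller cells fewer (1173 and 474 against 4155 and 4418). The part of these numbers in the totals was not tested. By subfamily, the 4 KCNIP genes took 28.7% of the channel UMIs in gated nuclei and the 4 KCNM, KCNT and KCNU pore genes 10.9%. The shares given here do not cover all subfamilies, and that of the KCNIP genes was not the largest. The 14 two-pore-domain (KCNK) genes together held 1.03%. KCNA10, KCNJ1 and KCNJ4 had 0 UMIs, and 34 of the 92 genes had under 1000 UMIs over all gated nuclei. Of the 92 genes, 68 passed the filter on low counts in vehicle retinas and 24 did not.

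The first question was which class carries which channel. In vehicle retinas, 3 animals and 11 classes could be compared. Amacrine, ganglion and bipolar cells had the most channel genes above the mean of the other classes: 52 of 68 genes were so in amacrine cells (percent of all tested genes so called, 37%), 44 in retinal ganglion cells (RGCs; 33.5%) and 39 in bipolar cells (36.2%). The count was 18 in cones (38.4%), 17 in horizontal cells (25.5%), 16 in astrocytes (26.7%), 15 in Müller cells (34.3%) and 12 in rods (41.6%). It was 9 in RPE (16.6%), 5 in microglia and macrophages (10.1%) and 5 in pericytes and smooth muscle (8.68%). These calls are from edgeR's quasi-likelihood test on UMIs summed per animal, with Benjamini-Hochberg adjustment over all genes tested and a threshold of 0.05. Most genes were called above in several classes: 52 of the 68 in 3 or more, 10 in 2 and 6 in 1. The like shares of all genes are not given. A call therefore does not mean that a gene is confined to a class. Rods, with the most nuclei, thus lay well below their background share and amacrine cells, RGCs and bipolar cells above theirs.

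**Figure D1:**
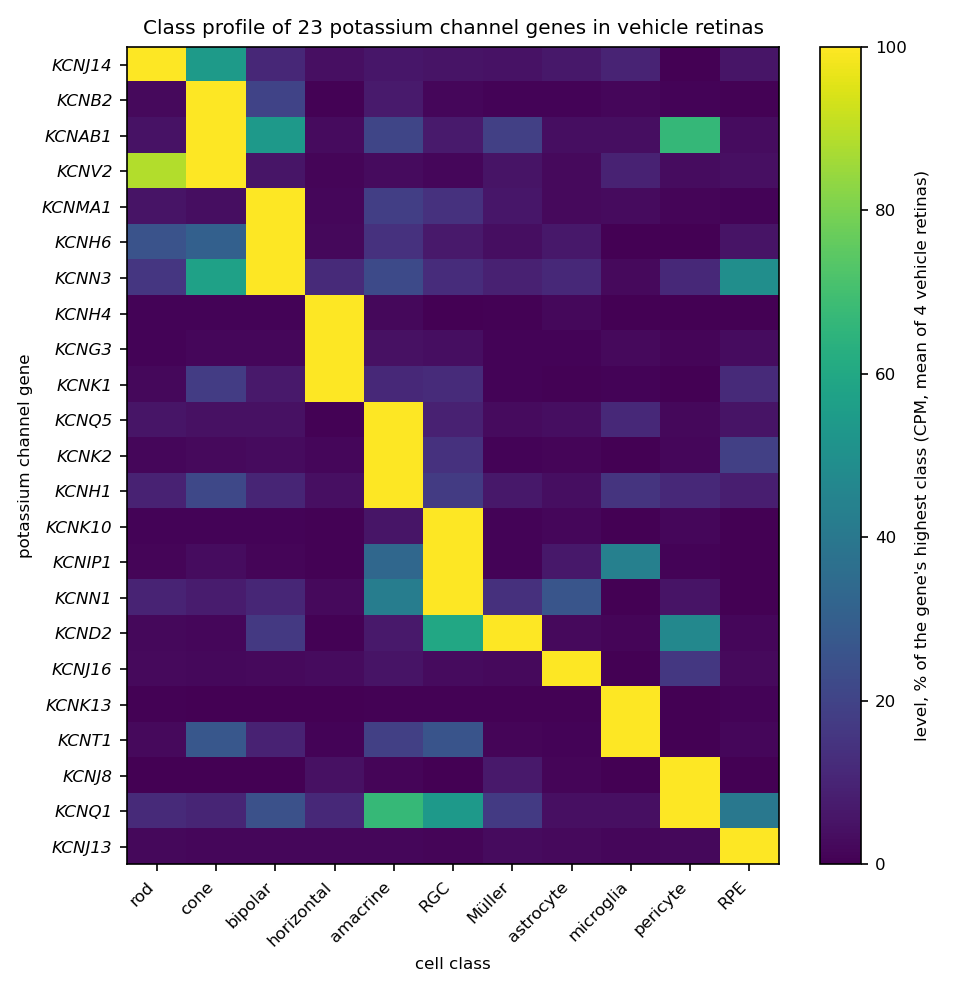
Each row is a channel gene, each column a cell class, and the colour gives the gene's CPM in that class as a percentage of its highest class, over the mean of the 4 vehicle retinas. The 23 genes are of at least 10 CPM and were highest in 1 class in each of the 4 retinas, up to 3 per class, and most rows have 1 bright cell, whereas KCNV2 is bright in both photoreceptor classes.

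Of the 57 channel genes that reached 10 CPM in their highest class, 27 (47.4%) stood at least 2-fold over the next class, against 28.1% of all genes at that level. At least 5-fold was reached by 12 (21.1%), against 10.2% of all genes. These shares are given without a test.

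Photoreceptors shared a silent subunit. KCNV2 (chromosome 1, 219099858 to 219113194 in Sscrofa11.1), the silent subunit whose loss causes a human cone dystrophy with supernormal rod responses, stood at 51.3 and 48.9 CPM in the week 2 and 44.2 and 49.3 CPM in the week 4 vehicle retinas in cones. In rods it stood at 43.2 and 41.7 CPM in the week 2 and 40.9 and 45.4 CPM in the week 4 vehicle retinas. Cones lay above rods in each of the 4 retinas but by only 1.11-fold (47.9 ± 3.17 CPM against 43.0 ± 2.30 CPM, SD, n = 3 animals), and the third class, microglia, was at 6.05 CPM.

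KCNB2, a voltage-gated pore gene, separated the photoreceptor classes. It was at 15047 and 13688 CPM in the week 2 and 14956 and 12998 CPM in the week 4 vehicle retinas in cones, 4.90-fold over bipolar cells (log2 difference from the mean of the other classes 6.05 ± 0.13, adjusted p = 3.35e-30), and at 302 and 329 CPM in the week 2 and 285 and 466 CPM in the week 4 vehicle retinas in rods. KCNJ14, an inward rectifier, was highest in rods (15.4 ± 1.70 CPM against 8.48 ± 0.663 CPM in cones). KCNAB1, an auxiliary beta subunit of the KCNA channels, was highest in cones (2334 ± 113.2 CPM) and next in pericytes (1509 ± 103 CPM), followed by bipolar cells, whose mean was 1263 CPM.

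Bipolar cells led for KCNMA1, the pore of the large-conductance calcium-activated (BK) channel. Its level was 4394 and 4464 CPM in the week 2 and 4355 and 4299 CPM in the week 4 vehicle retinas, 5.40-fold over amacrine cells (log2 difference from the mean of the other classes 4.80 ± 0.13, adjusted p = 1.59e-27). KCNH6 was at 29.2 ± 4.24 CPM in bipolar cells against 8.71 ± 1.15 CPM in cones, and KCNN3, a small-conductance calcium-activated channel, at 219 ± 7.51 CPM against 123 ± 18.0 CPM in cones.

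Horizontal cells, which feed back onto photoreceptors, led for 3 genes by over 6-fold. KCNH4 stood at 9.08 and 10.5 CPM in the week 2 and 23.4 and 17.9 CPM in the week 4 vehicle retinas, 45.5-fold over amacrine cells. The silent subunit KCNG3 stood at 105 and 92.2 CPM in the week 2 and 103 and 83.9 CPM in the week 4 vehicle retinas, 23.1-fold over amacrine cells. KCNK1, a two-pore-domain channel, was 6.14-fold over cones at 289 ± 60.9 CPM. KCNH7 (4328 ± 248 CPM) and the inward rectifier KCNJ2 (74.8 ± 9.88 CPM) were also highest there, 2.98- and 3.08-fold over bipolar cells.

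Amacrine cells led for KCNQ5 (457 ± 14.9 CPM, 9.98-fold over the next class), KCNK2 (161 ± 14.4 CPM, 5.92-fold), a mechanically and lipid-gated two-pore-domain channel, and KCNH1 (195 ± 31.5 CPM, 4.51-fold). RGCs, the output neurons, led for KCNK10 at 104 and 90.3 CPM in the week 2 and 95.6 and 92.5 CPM in the week 4 vehicle retinas, 16.9-fold over amacrine cells. They also led for KCNIP1 (1799.8 ± 52.9 CPM), an auxiliary subunit of the KCND channels, KCNN1 (24.8 ± 2.33 CPM) and KCNC2 (989.8 ± 88.3 CPM), a fast-spiking pore gene that was next in amacrine cells (483 ± 52.4 CPM). Among the genes of the M-current, KCNQ3 was at 314 CPM in RGCs against 294 in amacrine cells, and the order of these 2 classes was not the same in all retinas. KCNA1, a KCNA pore gene of axons, was at 22.4 to 23.4 CPM in RGCs, 9.93 to 15.7 in amacrine cells and 15.7 to 33.4 in astrocytes, so RGCs and astrocytes were not separated.

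Glia differed from one another. KCND2, a pore gene of the transient A-type current, was highest in Müller cells at 1412 and 1327 CPM in the week 2 and 1199 and 1704 CPM in the week 4 vehicle retinas, 1.67-fold over RGCs (log2 difference from the mean of the other classes 4.67 ± 0.12, adjusted p = 7.35e-29), while astrocytes held 22.3 to 43.2 CPM. KCNJ16, an inward rectifier that pairs with the main glial one, was highest in astrocytes at 27.4 and 24.3 CPM in the week 2 and 37.9 and 13.5 CPM in the week 4 vehicle retinas. In Müller cells it was at 0.387 to 0.711 CPM. KCNT2, a sodium-activated channel, was at 274 to 332 CPM in astrocytes and 293 to 408 in RPE, which overlap, and at 37.4 to 63.2 in Müller cells.

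Microglia and macrophages led for the gene with the largest ratio to the next class of all 92. KCNK13, the two-pore-domain channel that sets the microglial resting potential, stood at 517 and 478 CPM in the week 2 and 663 and 649 CPM in the week 4 vehicle retinas there, 95.03-fold over RPE, which was next (log2 difference from the mean of the other classes 7.90 ± 0.23, adjusted p = 1.44e-24). These values rest on 308 UMIs in 283 nuclei. KCNT1, a sodium-activated channel, was also highest there (47.7 ± 17.2 CPM, 30 UMIs). KCNIP1 was at 472 to 1039 CPM in microglia, by mean the second class after RGCs, which overlaps amacrine cells at 561 to 640 CPM.

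Pericytes and smooth muscle led for KCNJ8, the pore of the vascular ATP-sensitive channel, at 103 and 52.1 CPM in the week 2 and 66.7 and 62.3 CPM in the week 4 vehicle retinas (37 UMIs), 13.6-fold over Müller cells. Of the classes compared, they also led for KCNQ1 (76.7 ± 11.3 CPM), which amacrine cells followed at 49.8 ± 5.28 CPM. Endothelial nuclei, too few to compare, held KCNQ1 at 41.8 and 42.6 CPM in the week 2 and 334 and 79.8 in the week 4 vehicle retinas. These rest on 2 or 3 UMIs a retina and overlap the pericyte levels, so pericytes were not separated from endothelial cells. RPE led for KCNJ13, the inward rectifier of its apical membrane, at 1105 and 936 CPM in the week 2 and 721 and 577 CPM in the week 4 vehicle retinas, 31.2-fold over Müller cells. The 2 eyes of the week 2 animal lay above both week 4 retinas. The means of the other classes over the vehicle animals ran from 11.3 to 25.1 CPM. 

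Several genes known from other work on retina or immune cells gave too few UMIs to test in vehicle retinas: KCNV1, KCNS1, KCNS2, KCNS3, KCNA3, KCNK6, KCNN4 and KCNE4. KCNK6 had 7 UMIs in microglia, its highest class, KCNE4 5 in pericytes, KCNA3 2 in microglia and KCNN4 3 in RGCs. The silent subunits KCNV1 and KCNS1 had 4 and 2 UMIs in RGCs. These genes were not tested for a class difference, though some stood apart between classes. KCNS2 was at 1.23 to 1.88 CPM in amacrine cells and 0.0444 to 0.126 in bipolar cells of the vehicle retinas. KCNA3 was at 0.858 to 1.26 CPM in bipolar cells and 0.0345 to 0.161 in rods. Among others of known role, KCNA5 and KCNJ11 were highest in bipolar cells (10.1 ± 2.58 CPM and 4.68 ± 0.0808 CPM), KCNH2 too (21.6 ± 2.28 CPM, with RGCs at 18.5 CPM), and KCNC1 in amacrine cells (133 ± 15.4 CPM). KCNIP2 and KCNIP4 were highest in RGCs (65.5 ± 5.19 CPM and 10593 ± 704 CPM), KCNAB2 and KCND3 also (129 ± 23.4 CPM and 396 ± 34.2 CPM).

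Within bipolar cells, the channels divided ON from OFF cells, which depolarise and hyperpolarise to light. Nuclei were placed by their own markers (13211 ON and 8839 OFF nuclei in vehicle retinas, at least 3 marker UMIs of which 80% of 1 kind). The ON nuclei were not split into rod bipolar and cone bipolar cells, and the part of either in the differences below was not tested. Of the 35 channel genes at 10 CPM or more, 18 were higher in OFF cells without overlap of the 4 retinas (51.4%, against 21.4% of all genes at that level) and 9 in ON cells (25.7%, against 18.1%). KCND2 ran from 439 to 583 CPM in OFF and 26.05 to 36.1 in ON cells, 16.8-fold apart. KCNJ6, a G protein-gated inward rectifier, ran from 216 to 377 in OFF and 19.8 to 28.2 in ON cells (10.9-fold), and KCND3 from 376 to 452 and 59.8 to 73.4 (6.16-fold). The BK beta subunit KCNMB4 was the reverse, 28.7 to 38.1 in ON and 2.33 to 3.61 CPM in OFF cells (9.92-fold), as was KCNH5 (5.14-fold). The A-type pore genes KCND2 and KCND3 and their subunits KCNIP2 and KCNIP4 thus all lay higher in OFF cells. The 4 retinas come from 3 animals, the counts carry no test, and the genes named within bipolar and amacrine cells were chosen after their values were seen.

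Amacrine cells divided too. Of 42 channel genes of at least 10 CPM, 18 were higher in GABAergic cells without overlap (against 15.6% of all genes) and 12 in glycinergic cells (against 19.6%). In percent these were 42.9% and 28.6% of the channel genes. KCNH5 was at 412 to 460.2 CPM in GABAergic and 11.6 to 22.7 in glycinergic cells, without overlap. KCNQ3 (11.6-fold), KCNH7 (8.89-fold) and KCNIP4 (7.27-fold, 18023 to 22329 against 2025 to 3406 CPM) were higher in glycinergic cells.

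Starburst cells, the cholinergic amacrine cells of direction selectivity, were set against the other GABAergic cells. There 12 genes were higher in starburst cells without overlap (28.6%, against 14.8%) and 19 in the others (45.2%, against 26.1%). KCNK2 was at 897 to 1071 CPM in starburst and 67.6 to 91.6 in the other GABAergic cells (12.3-fold). KCNH8 (19.7-fold) and KCNMB4 (14.7-fold) were also higher in starburst cells. KCNT2 was 25.6-fold higher in the others. The 2 fast-spiking pore genes went opposite ways, with KCNC1 1.83-fold higher in starburst cells and KCNC2 4.27-fold higher in the others.

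**Figure D2:**
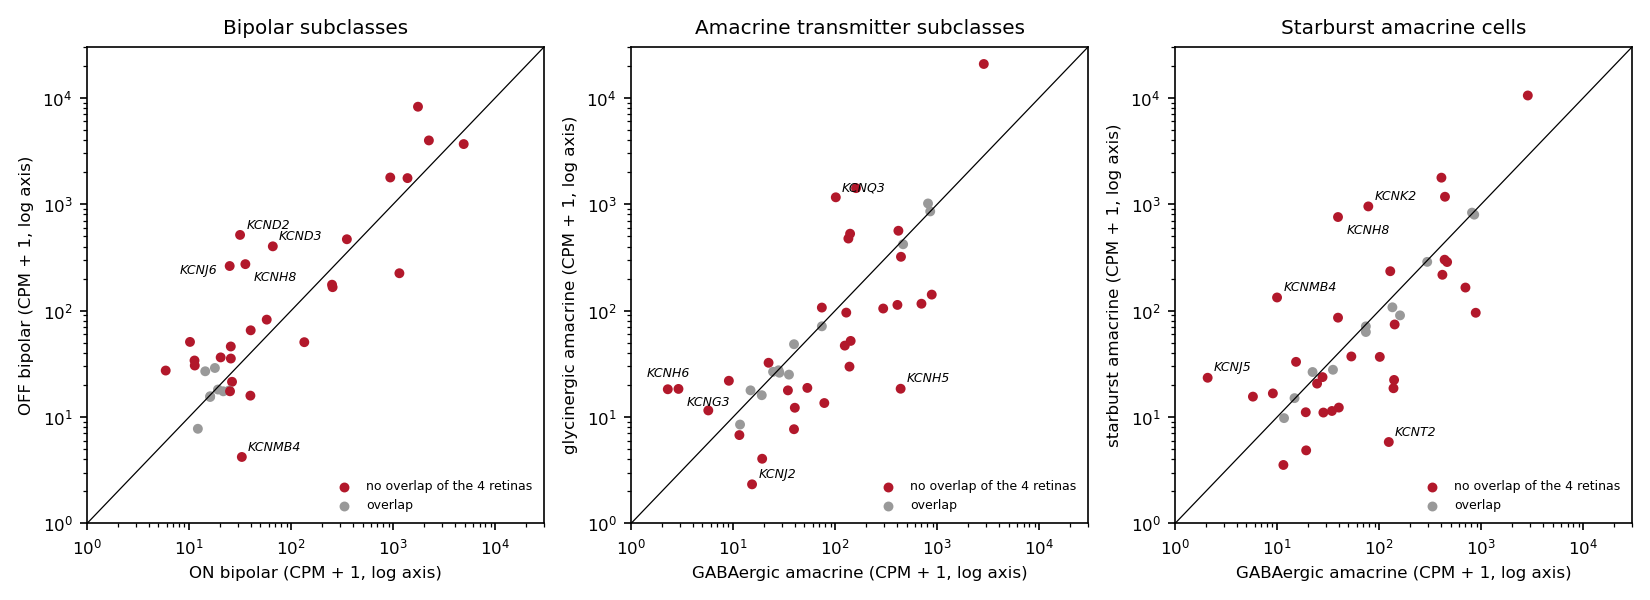
Each point is a channel gene of at least 10 CPM in either subclass, placed by its mean CPM + 1 over the 4 vehicle retinas on log axes, and the line marks equal levels. Red points do not overlap between the subclasses in the 4 retinas, and the 5 with the largest ratios are named. KCND2 lies far on the OFF side and KCNMB4 on the ON side.

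The second question was how these levels stood after AAV. At week 4, 2 AAV animals were compared with 2 vehicle animals in 9 classes, with 427 gene and class pairs tested over 72 genes. Of these, 9 were higher and 54 lower at an adjusted p under 0.05 (edgeR's quasi-likelihood test), and 40 of the 54 lower calls fell in rods and Müller cells. In Müller cells 20 of 46 genes were lower (10.5% of all genes) and 2 higher (10.7%). In rods 20 of 63 were lower (5.31%) and 1 higher (5.97%). The other classes had few calls: 4 lower and 1 higher of 29 in astrocytes (7.42% and 7.96%), 3 lower and 2 higher of 28 in microglia (4.31% and 6.85%), 3 lower and 0 higher of 48 in RGCs (0.78% and 2.16%). Horizontal cells had 2 lower and 2 higher of 31 (1.46% and 2.87%), amacrine cells 1 lower and 1 higher of 66 (0.729% and 1.85%), and cones 1 lower and 0 higher of 53 (0.348% and 0.798%). Bipolar cells had 0 of 63 in either direction (0.53% and 1.47%), and 1 higher and 2 lower with DESeq2. At an unadjusted p under 0.05 there were 17, for which the share of all genes is not given.

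**Figure D3:**
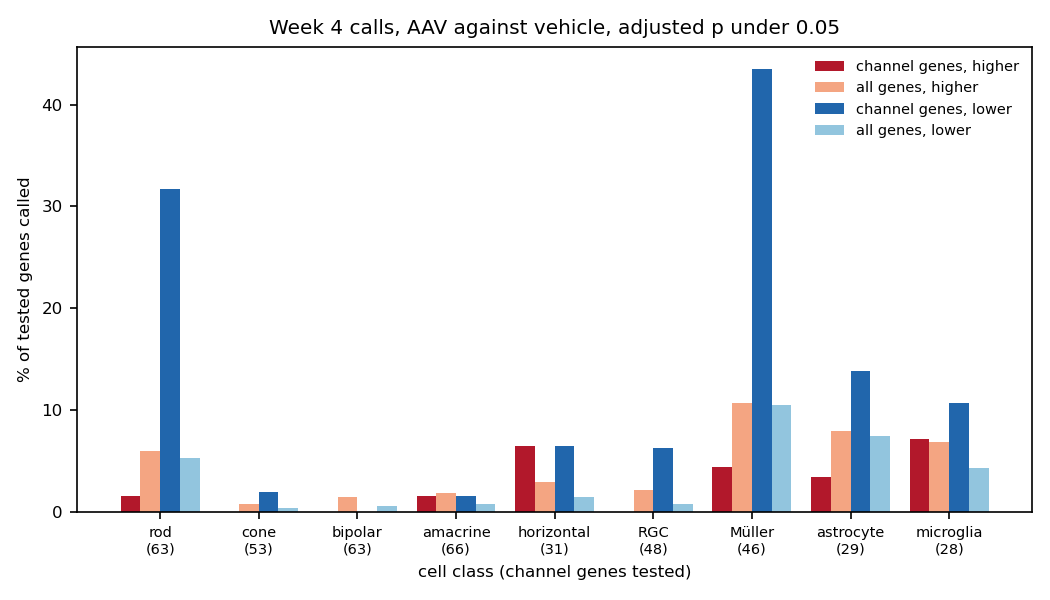
Bars give the percentage of tested genes called higher or lower in AAV against vehicle retinas at week 4, for channel genes and for all genes of the class, with the number of channel genes tested under each class. The channel bars for lower calls stand at 43.5% in Müller cells and 31.7% in rods, against 10.5% and 5.31% of all genes.

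The lower count moved with single retinas, to 88 without AAV replicate 1 and 33 without vehicle replicate 2, and was 35 in a stricter gate. In Müller cells these 3 settings gave 17, 17 and 12 lower genes, in rods 23, 5 and 17. The higher count was 16 without AAV replicate 1 and 15 without AAV replicate 2. The median log2 fold change of the channel genes was -0.87 in Müller cells, -0.78 in rods and -0.57 in cones. It was -0.49 in astrocytes and -0.47 in microglia. The median of all genes in these 5 classes was 0.01, 0.02, 0.01, 0.00 and 0.10. In bipolar, amacrine, horizontal and ganglion cells the channel median lay between -0.18 and -0.12. A median counts each tested gene once, and the genes share samples. Of the 20 genes lower in rods 13 were also lower in Müller cells, 65% of either list. Both lists come from the same retinas, and the like share over all genes is not given here. The overlap is thus not read as a trait of the channel genes.

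In 44 of the 54 lower calls and 7 of the 9 higher calls, the vehicle level of the class was under 25% of that in the gene's highest class. In rods this held for 17 of the 20 lower calls and for 52 of the 63 tested genes, and in Müller cells for 19 of 20 and for 38 of 46, so that the tested genes as a whole were mostly under it too. Among the called genes of rods, the 5 largest falls were of KCNC4, KCNJ9, KCNIP3, KCNQ3 and KCND2. KCNIP3, a calcium-binding subunit, was at 1.73 and 1.12 CPM in the AAV retinas against 4.86 and 6.11 in the vehicle retinas (-1.86 ± 0.29, adjusted p = 0.0172), and KCNQ3 at 19.2 and 7.86 CPM in the AAV retinas against 40.5 and 62.5 in the vehicle retinas (-1.86 ± 0.40, adjusted p = 0.0356). KCNIP4, which had the most UMIs of the 20, was at 600.3 and 349 CPM in the AAV retinas against 1309.9 and 1636 in the vehicle retinas (-1.56 ± 0.24, adjusted p = 0.0159), while amacrine cells held 6390.3 and 6299 CPM in the AAV retinas against 6785 and 8044 in the vehicle retinas. KCNC4 (-2.81 ± 0.41, adjusted p = 0.0143), KCNJ9 (-1.89 ± 0.30, adjusted p = 0.0181) and KCND2 (-1.79 ± 0.33, adjusted p = 0.0248) each lay under 45 CPM in rods of every retina. In each of the 20 genes, both AAV retinas lay below both vehicle retinas. The 20 genes were called on these same values, so this order is not a separate test of the falls.

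Among the called genes of Müller cells, the 5 largest falls were of KCNIP3, KCNIP1, KCNQ3, KCNC1 and KCNIP4. KCNIP3 had 1 UMI in the AAV and 60 in the vehicle retinas. KCNQ3 was at 4.44 and 2.58 CPM in the AAV retinas against 16.6 and 24.5 in the vehicle retinas (-2.44 ± 0.32, adjusted p = 0.00251), KCNC1 at 1.07 and 0.737 CPM in the AAV retinas against 5.22 and 5.09 in the vehicle retinas (-2.41 ± 0.40, adjusted p = 0.00642) and KCNIP1 at 3.83 and 1.11 CPM in the AAV retinas against 12.9 and 19.7 in the vehicle retinas (-2.49 ± 0.42, adjusted p = 0.00658). KCNIP4 was at 206 and 52.3 CPM in the AAV retinas against 502 and 618 in the vehicle retinas (-2.09 ± 0.49, adjusted p = 0.0227). KCND2, the gene that Müller cells lead for, was at 929 and 1259.5 CPM in the AAV retinas against 1199 and 1704 in the vehicle retinas, which overlap, and was not called (-0.41 ± 0.21, adjusted p = 0.212). In rods KCNJ14, a gene at its highest class there (13.3 and 12.1 CPM in the AAV retinas against 14.5 and 14.2 in the vehicle retinas), was not called either, though both AAV retinas lay below both vehicle retinas.

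Markers of some other classes were lower alongside, though not of all. In Müller cells the astrocyte markers were higher in both AAV retinas and the pericyte markers overlapped, with values given further below. In rods, the summed level of the amacrine markers was 63.1 and 44.1 CPM in the AAV and 91.8 and 114 in the vehicle retinas (8 of 9 markers lower in both AAV retinas), that of the bipolar markers 144 and 132 against 178 and 262 (7 of 8), of the cone markers 81.6 and 86.2 against 150.2 and 196 (6 of 7) and of the Müller markers 32.6 and 25.8 against 102 and 110.0 (6 of 7). In Müller cells, rod markers were at 236 and 206 against 519 and 494 CPM (7 of 7), cone markers at 24.2 and 21.7 against 57.3 and 89.0 (7 of 7), bipolar markers at 67.8 and 35.0 against 135 and 156 (7 of 8) and amacrine markers at 18.5 and 12.2 against 43.8 and 54.9 (7 of 9, 1 of them at 0 UMIs). Median UMIs per Müller nucleus were 5496 and 5697 in the AAV and 2220 and 2014 in the vehicle retinas. The part of RNA from other cells, and of depth, in the lower calls was not tested.

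**Figure D4:**
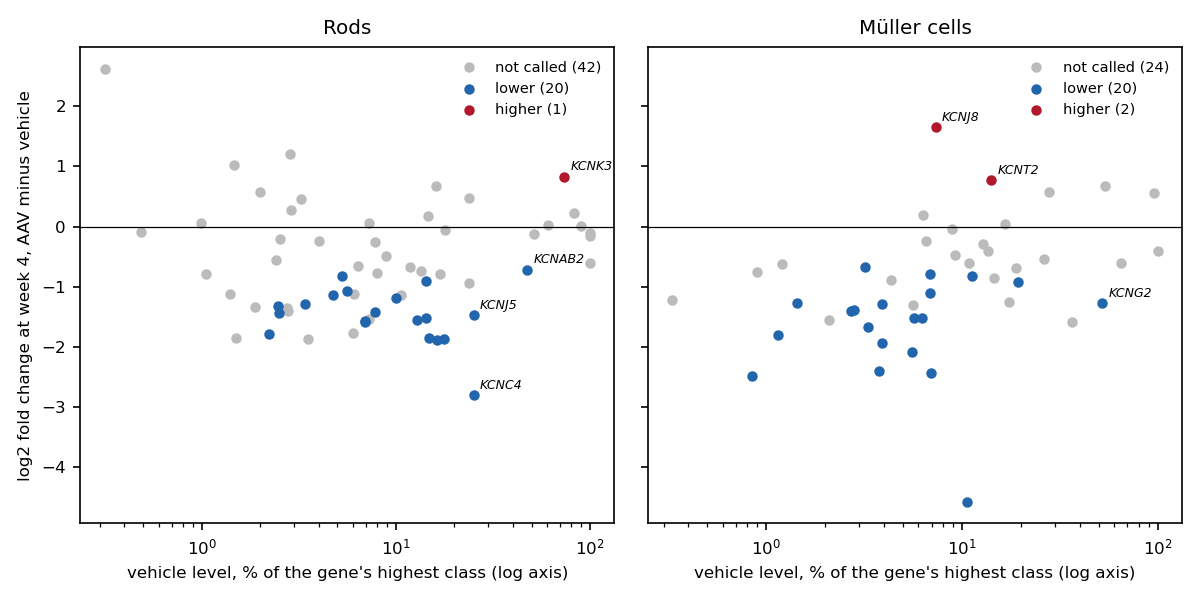
Each point is a channel gene tested in rods (left) or Müller cells (right), placed by its vehicle level as a percentage of that in its highest class (log axis) and by its log2 fold change at week 4. The lower calls, 20 in each panel, lie mostly left of 25%, as do the tested genes as a whole (52 of 63 and 38 of 46), and the named points are the higher calls and the lower calls above 25%.

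The genes higher at week 4 were fewer and more varied. KCNK3, an acid-sensitive two-pore-domain channel, rose in rods, to 98.1 and 79.3 CPM in the AAV retinas against 51.8 and 53.8 in the vehicle retinas, with a log2 fold change of 0.83 ± 0.12 (SE) and an adjusted p of 0.0152. Rods held 73.4% of the vehicle level of bipolar cells, its highest class, and both AAV eyes at week 2 (66.0 and 63.0 CPM) also lay above both vehicle eyes (42.8 and 42.9). The call held in each of the 4 fits that left out 1 retina. KCNK3 was at 24.6 and 20.1 CPM in the AAV retinas against 15.6 and 15.5 in the vehicle retinas in cones and at 88.9 and 82.0 CPM in the AAV retinas against 66.9 and 73.7 in the vehicle retinas in bipolar cells, without overlap in either but not called.

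KCNJ8 rose in Müller cells, at 16.1 and 19.9 CPM in the AAV retinas against 3.87 and 7.35 in the vehicle retinas, with a log2 fold change of 1.65 ± 0.32 (SE) and an adjusted p of 0.0118. At week 2 the AAV eyes held 4.49 and 8.05 CPM and the vehicle eyes 4.83 and 3.90, which overlap. Markers of pericytes, the class that leads for KCNJ8, were at 109 and 112 CPM in the AAV and 115 and 106 CPM in the vehicle Müller nuclei, which overlap. Not split by retina, PDGFRB stood at 88.8 CPM and NOTCH3 at 14.8 in Müller nuclei, which made most of that level. RGS5 stood at 0.32 CPM there, against 730 in pericytes. The marker level is thus not a measure of pericyte RNA, whose part in KCNJ8 was not tested. KCNT2 rose in Müller cells too, at 80.8 and 98.1 CPM in the AAV retinas against 40.5 and 63.2 in the vehicle retinas (0.78 ± 0.22, adjusted p = 0.0462), and fell in rods (-1.28 ± 0.21, adjusted p = 0.0197). Its call in Müller cells was lost without AAV replicate 2, without vehicle replicate 1, in the stricter gate, and with no filter on low counts, each taken alone. Astrocyte markers, of a class high in KCNT2, were at 221 and 166 CPM in the AAV and 56.5 and 109.5 in the vehicle Müller nuclei. Without a split by retina, GFAP stood at 63.1 CPM and PAX2 at 0.21 in Müller nuclei, against 883 and 873 in astrocytes. GFAP thus made most of that level, and the paper names it as a gene of both astrocytes and Müller glia. The part of astrocyte RNA in KCNT2 was not tested. KCNJ13 fell in Müller cells, at 14.999 and 14.7 CPM in the AAV retinas against 22.9 and 24.6 in the vehicle retinas (-0.68 ± 0.17, adjusted p = 0.0303), a call kept in 1 of the 4 fits that left out a retina. RPE leads for KCNJ13, and the part of RPE RNA in its Müller levels was not tested at either week. RPE nuclei were too few at week 4 (28 and 4 in the AAV retinas) for a test there, and KCNJ13 stood at 519.5 and 516 CPM in them against 721 and 577 in the vehicle retinas.

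In cones the single call was KCNMB4, an auxiliary subunit that slows the BK channel. It was at 0.859 and 1.19 CPM in the AAV retinas against 31.1 and 26.4 in the vehicle retinas (33 against 906 UMIs), with a log2 fold change of -4.73 ± 0.24 (SE) and an adjusted p of 0.000876. At week 2 the order was the reverse, with 32.3 and 41.8 CPM in the AAV and 2.76 and 1.67 in the vehicle eyes. The 8 retinas thus fell into a high set of 26.4 to 41.8 CPM and a low set of 0.859 to 2.76 CPM, with the 2 eyes of each week 2 animal in the same set and each set holding both treatments. With the week 2 vehicle animal added to the controls the call was lost. Bipolar cells ran from 12.4 to 24.6 CPM and amacrine cells from 17.7 to 26.9 CPM over the same 8 retinas, with no such gap. For this gene a difference between animals and one between treatments cannot be told apart.

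Horizontal cells had the largest fitted rise of the 8 that were called against a vehicle level above 0. KCNH1, a voltage-gated pore gene of the EAG type, stood at 82.2 and 67.2 CPM in the AAV retinas against 9.96 and 5.95 in the vehicle retinas, with a log2 fold change of 3.16 ± 0.30 (SE) and an adjusted p of 0.000485. At week 2 the AAV eyes (12.1 and 10.2 CPM) and vehicle eyes (10.8 and 7.84) were near the week 4 vehicle level. KCNH1 was called under all 12 alternatives run, those that left out a retina included. Its highest class, amacrine cells, held 226 and 204 CPM in the AAV retinas against 165 and 195 in the vehicle retinas. Amacrine markers in horizontal cells were at 761 and 758 CPM in the AAV and 568 and 578 in the vehicle retinas. By gene and not split by retina, most of that level was TFAP2B, at 392 CPM in horizontal and 292 in amacrine cells. SLC6A9 stood at 6.2 against 118 CPM. The part of amacrine RNA was not tested. KCNMA1 was at 159 and 202 CPM in the AAV retinas against 66.8 and 43.4 in the vehicle retinas (1.64 ± 0.22, adjusted p = 0.00378), but the week 2 vehicle eyes held 126 and 91.1 CPM and the call was lost when that animal was added. Bipolar markers, of the class that leads for KCNMA1, stood at 1277 and 1531 CPM in the AAV and 364 and 1302 in the vehicle horizontal nuclei. Most of the bipolar marker level there was GRIK1 (613 CPM, not split by retina), with TRPM1 at 38.1 against 2997 CPM in bipolar cells. The part of bipolar RNA was not tested. KCNAB1 (29.1 and 27.8 CPM in the AAV retinas against 97.2 and 54.1 in the vehicle retinas) and KCND2 (1.29 and 1.54 CPM in the AAV retinas against 7.03 and 9.52 in the vehicle retinas, 4 and 28 UMIs) fell, the KCND2 call being lost without any 1 retina.

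**Figure D5:**
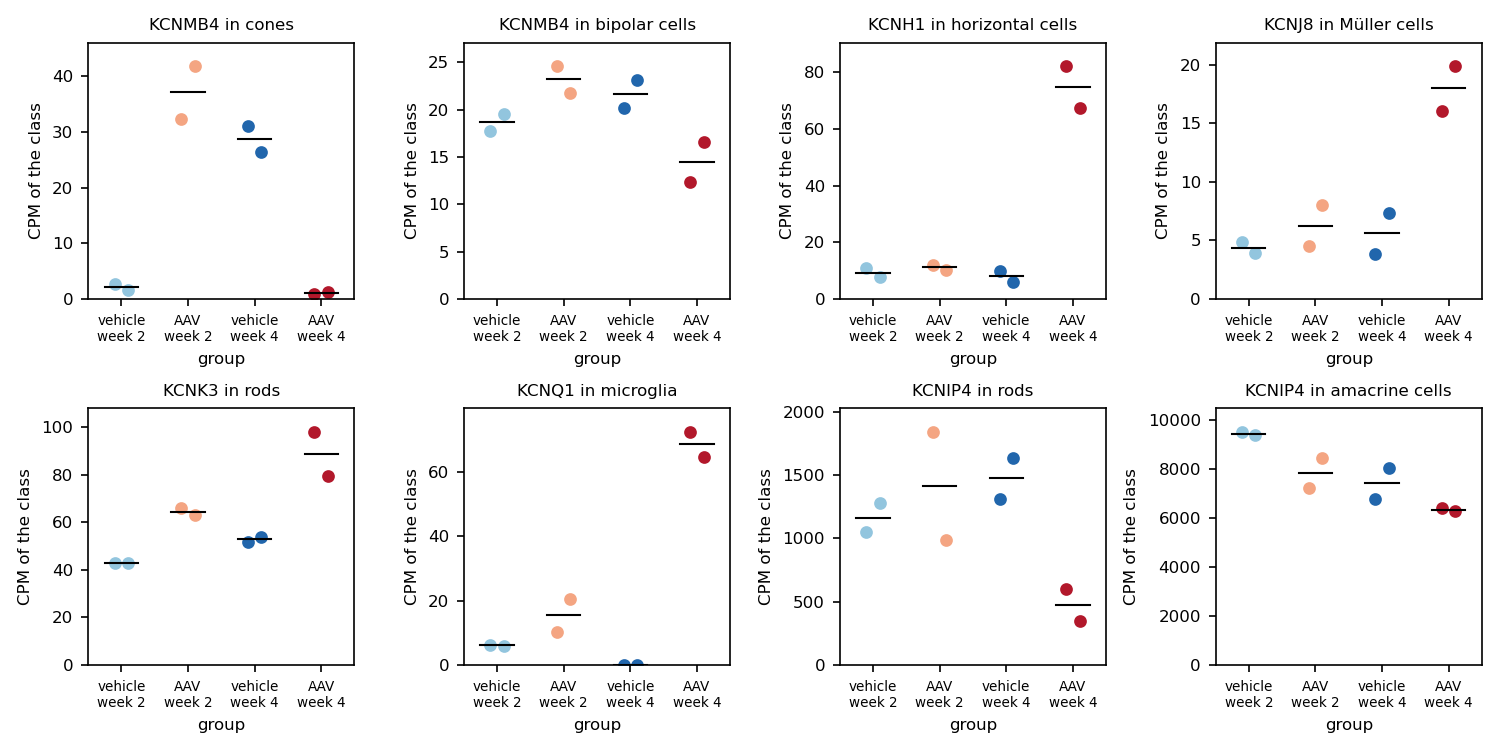
Each point is 1 retina and each line the mean of the 2 retinas of a group, with CPM of the class on a linear axis from 0. KCNMB4 in cones switches between sets of retinas that mix treatments, KCNH1 in horizontal cells and KCNQ1 in microglia are high in both week 4 AAV retinas alone among the groups, and KCNIP4 is low in week 4 AAV rods.

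In amacrine cells KCNN1, a small-conductance calcium-activated channel, was lower at 4.82 and 4.88 CPM in the AAV retinas against 10.2 and 11.4 in the vehicle retinas (-1.16 ± 0.19, adjusted p = 0.0121). It was lower in RGCs as well, at 12.2 and 7.44 CPM in the AAV retinas against 22.2 and 26.4 in the vehicle retinas (-1.24 ± 0.28, adjusted p = 0.0326). These are the classes in which it is highest. RGCs also had lower KCNAB2 (73.8 and 101 CPM in the AAV retinas against 135 and 148 in the vehicle retinas; -0.65 ± 0.15, adjusted p = 0.0315). All 3 RGC calls were lost in the stricter gate and with DESeq2, and the week 2 vehicle eyes held 100.2 and 105 CPM of KCNAB2. KCND2 was the 1 gene higher in amacrine cells, at 143 and 129.9 CPM in the AAV retinas against 105 and 86.3 in the vehicle retinas (0.51 ± 0.11, adjusted p = 0.0479), a call lost without AAV replicate 1, without vehicle replicate 2, in the stricter gate and with all deposited barcodes.

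In astrocytes KCNIP4 fell to 93.5 and 41.0 CPM in the AAV retinas against 470.3 and 558 in the vehicle retinas (-2.84 ± 0.31, adjusted p = 0.000533), with KCNJ6 (-2.68 ± 0.67, adjusted p = 0.0258), KCND3 (-1.35 ± 0.26, adjusted p = 0.00915) and KCNH5 (-1.15 ± 0.23, adjusted p = 0.0106). KCNIP1 rose, at 312 and 229 CPM in the AAV retinas against 52.4 and 138 in the vehicle retinas (1.53 ± 0.35, adjusted p = 0.0176), although the week 2 vehicle eyes held 156 and 134 CPM. Amacrine markers in astrocytes were at 66.5 and 64.9 against 164 and 146 CPM and RGC markers at 282 and 293 against 183 and 193. Most of the RGC marker level was RBPMS, at 179 CPM in astrocytes and 1006 in RGCs, not split by retina. SLC17A6 stood at 0.83 against 311 CPM in the same classes. Median UMIs per nucleus were 10137.5 and 10625 against 4634 and 4766.5. The part of other cells' RNA and of depth was not tested.

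Microglia and macrophages numbered 1011 and 677 nuclei in the AAV and 65 and 67 in the vehicle retinas at week 4. The gate did not part microglia from macrophages. Whether their mix differed between the arms was not tested, which holds for every week 4 value of this class. KCNQ1, a pore gene of slow voltage-gated currents, was at 72.5 and 64.6 CPM (359 UMIs) in the AAV retinas and had 0 UMIs in the vehicle retinas, at least 5.12-fold higher against a floor of 3 counts over that group (13.5 CPM), with an adjusted p of 0.00224. The vehicle eyes at week 2 held 1 UMI each and the AAV eyes 10.3 and 20.7 CPM. The call was lost without AAV replicate 1 and without AAV replicate 2. Among other classes' markers in these nuclei, those of pericytes, which led for KCNQ1 among the classes compared, were at 4.81 and 3.05 against 0 and 0 CPM. Those of amacrine cells were at 54.9 and 48.9 against 0 and 32.4 and those of lymphocytes at 205 and 302 against 80.4 and 105. Most of the lymphocyte level was CD2 (137 CPM, not split by retina), with CD3E at 1.96 against 419 CPM in lymphocytes. Lymphocytes held 4.79 and 4.93 CPM of KCNQ1. The part of RNA from other cells was not tested. The intervals and floors cover counting error only. KCNQ3 was higher too, at 227 and 313 CPM in the AAV retinas against 131 and 81.1 in the vehicle retinas (1.52 ± 0.32, adjusted p = 0.0078), but the week 2 vehicle eyes held 227 and 119 CPM.

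KCNB2 (63.9 and 81.6 CPM in the AAV retinas against 281 and 406 in the vehicle retinas; -2.12 ± 0.27, adjusted p = 0.000182), KCNT1 (4.46 and 6.11 CPM in the AAV retinas against 30.1 and 48.7 in the vehicle retinas; -2.79 ± 0.69, adjusted p = 0.0181) and KCNT2 (5.15 and 5.24 CPM in the AAV retinas against 20.1 and 64.9 in the vehicle retinas; -2.94 ± 0.70, adjusted p = 0.0151) were lower in microglia. KCNT1 had 9 and KCNT2 10 UMIs in the vehicle retinas, and the KCNT1 call was lost without any 1 retina. The week 2 vehicle eyes held less KCNB2, at 120 and 101 CPM, with 68.6 and 198 in the AAV eyes of that week. For KCNT2 the week 2 vehicle eyes held 0 and 35.8 CPM, and for KCNT1 75.7 and 53.7. Cone markers, of the class that leads for KCNB2, were at 45.3 and 44.1 CPM in the AAV and 90.4 and 146 in the vehicle microglia, and rod markers at 280.2 and 285 against 703 and 446, and their part was not tested. KCNK13, the gene that marks this class, was at 401 and 443 CPM in the AAV retinas against 663 and 649 in the vehicle retinas and was not called (-0.50 ± 0.19, adjusted p = 0.118). At week 2 it was at 833 and 649 CPM in the AAV and 517 and 478 in the vehicle eyes, so the order of the groups was not the same at the 2 times.

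No gene was called in more than 3 classes at week 4. The 12 called in 3 included KCNAB1, KCNAB2, KCNB2, KCND2, KCND3, KCNH1, KCNH5, KCNIP4, KCNJ6, KCNQ3 and KCNT2. The classes come from the same retinas and the like share of all genes is not given. The count is thus not read as a result about the channel genes. KCNIP4, KCNJ6, KCND3 and KCNH5 fell in rods, Müller cells and astrocytes alike, though KCNJ6 in astrocytes rested on 13 UMIs in the AAV and 52 in the vehicle retinas. KCNQ3 fell in rods and Müller cells and rose in microglia, KCNH1 fell in the same 2 classes and rose in horizontal cells, and KCND2 fell in rods and horizontal cells and rose in amacrine cells.

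A list of 31 other genes of potassium handling (channel partners, HCN channels, sodium-potassium pumps, potassium-chloride cotransporters), of which 29 are in the files, was followed beside the channels. The share of all tested genes called lower or higher in a class is given beside its count. In Müller cells 9 of 24 tested genes were lower (10.5% of all genes) and 2 higher (10.7%). In rods 7 of 26 were lower (5.31%) and 1 higher (5.97%). In astrocytes 5 of 22 were lower (7.42%) and in microglia and macrophages 3 of 15 (4.31%), with 0 higher in either (7.96% and 6.85%). In horizontal cells 1 of 15 was lower (1.46%) and 2 higher (2.87%). In RGCs 1 of 19 was lower (0.78%) and in amacrine cells 1 of 25 (0.729%), with 0 higher in either (2.16% and 1.85%). Bipolar cells (25 tested) and cones (23) had 0 calls, where 0.53% and 0.348% of all genes were lower and 1.47% and 0.798% higher. ABCC8, a regulatory subunit of ATP-sensitive channels, fell in 5 classes, with -0.74 ± 0.14, adjusted p = 0.0122 in RGCs and -0.58 ± 0.11, adjusted p = 0.0253 in amacrine cells. SLC12A7 rose in Müller cells (2.10 ± 0.44, adjusted p = 0.0153) and SLC12A2 in rods (1.57 ± 0.17, adjusted p = 0.00547). ABCC9, the usual partner of the KCNJ8 pore, was called in horizontal cells alone of the 7 classes in which it was tested (-4.64 ± 0.78, adjusted p = 0.0123).

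Week 2 had a single animal in either arm, and its values are set side by side with no test. A gene was counted where the 2 eyes of the AAV animal and the 2 eyes of the vehicle animal did not overlap and their sums stood over 2-fold apart. Of 540 gene and class pairs in 11 classes, 29 were higher and 22 lower. RPE had 10 higher and 2 lower of 30 (7.71% and 3.4% of all genes), Müller cells 4 and 4 of 64 (6.44% and 5.04%), astrocytes 3 and 3 of 41 (3.63% and 6.34%) and microglia 0 and 7 of 20 (14.7% and 6.34%). The neurons and photoreceptors had at most 4 each: bipolar cells 3 and 1 of 73 (3.55% and 3.02%), horizontal cells 3 and 1 of 44 (5.92% and 2.46%), cones 2 and 1 of 59 (4.33% and 2.82%) and rods 2 and 1 of 64 (3.78% and 3.38%). RGCs had 1 and 1 of 59 (3.97% and 2.37%), amacrine cells 1 and 0 of 74 (4.04% and 2.04%) and pericytes 0 and 1 of 12 (10.9% and 7.39%).

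KCNJ13 in RPE stood at 519.5 and 447 CPM in the 2 eyes of the AAV animal and 1105 and 936 CPM in those of the vehicle animal, 0.410-fold (95% interval 0.376 to 0.448) after scaling, and in Müller cells at 13.2 and 14.4 CPM in the 2 eyes of the AAV animal and 30.8 and 24.2 CPM in those of the vehicle animal, 0.479-fold (95% interval 0.421 to 0.544). KCNK2 was lower in several classes: 0.276-fold (95% interval 0.210 to 0.358) in RGCs, 0.339-fold (95% interval 0.210 to 0.532) in RPE, 0.389-fold (95% interval 0.279 to 0.538) in cones and 0.475-fold (95% interval 0.348 to 0.640) in rods. In RGCs its values were 10.2 and 9.55 CPM in the 2 eyes of the AAV animal and 34.5 and 34.0 CPM in those of the vehicle animal. In amacrine cells, its highest class, KCNK2 was at 149 and 117 against 166 and 185 CPM. KCNC2 in Müller cells was at 63.7 and 57.8 CPM in the 2 eyes of the AAV animal and 135 and 99.1 CPM in those of the vehicle animal , 0.485-fold (95% interval 0.456 to 0.515).

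Among the higher genes, KCNMB4 in cones was 16.7-fold (95% interval 13.3 to 21.4) and KCNK3 in cones 2.27-fold (95% interval 1.98 to 2.60). KCND3 in horizontal cells was at 487 and 484 CPM in the 2 eyes of the AAV animal and 185 and 157 CPM in those of the vehicle animal , 2.71-fold (95% interval 2.52 to 2.92), and at week 4 it was at 446 and 379 CPM in the AAV retinas against 278 and 220.2 in the vehicle retinas, without overlap and not called. In RPE the higher genes were KCNB2, at 3.52-fold (95% interval 2.82 to 4.42), and KCNMA1, KCNJ6, KCNJ3, KCNQ3, KCNH5, KCNN2, KCNIP1, KCNAB2 and KCNC1, all highest in neurons. KCNJ6 there rested on 59 against 3 UMIs. Bipolar markers in RPE nuclei were at 140.0 and 123 CPM in the AAV and 65.1 and 37.4 in the vehicle eyes, amacrine markers at 329.8 and 328 against 204 and 239, and cone markers at 52.2 and 85.1 against 27.5 and 50.4. Most of the amacrine level was SLC6A9, at 184 CPM in RPE and 118 in amacrine cells, not split by retina. GAD2 stood at 18.7 against 492 CPM. The part of RNA from other cells was not tested. In microglia KCNQ3 was lower at 44.6 and 49.6 CPM in the 2 eyes of the AAV animal and 227 and 119 CPM in those of the vehicle animal , 0.292-fold (95% interval 0.174 to 0.475). The intervals are exact binomial ones for the ratio of UMIs and cover counting error only, not the difference between 2 animals.

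The difference between weeks in the AAV change was then tested in all 6 animals, with the 2 eyes of an animal summed. Of 474 pairs 10 passed an adjusted p of 0.05 and 111 an unadjusted one. As percentages of all genes the calls were 2.68% in Müller cells, where 3 of 60 channel genes passed, 1.93% in astrocytes (3 of 36), 1.3% in microglia (2 of 26), 0.16% in RGCs (1 of 53) and 0.0157% in cones (1 of 57). Rods (0.0734%), amacrine (0.0759%), horizontal (0.0903%) and bipolar cells (0%) had none, at an unadjusted p under 0.05 in 25, 11, 9 and 12 channel genes. The percentages are for adjusted calls. The share of all genes at an unadjusted p is not given, so the unadjusted counts are not read as a result about the channel genes. The change of KCNC1, KCNIP3 and KCNQ3 in Müller cells was lower at week 4 than at week 2. At week 2 the AAV eyes held 34.3 and 19.1 CPM of KCNQ3 and the vehicle eyes 29.5 and 18.1. KCNMB4 in cones had the largest difference of the 10 (-8.76 ± 0.39, adjusted p = 0.00123). KCNK2 in RGCs was lower in the AAV eyes at week 2 and stood at 27.1 and 26.6 CPM in the AAV retinas against 17.9 and 8.26 in the vehicle retinas at week 4 (2.96 ± 0.45, adjusted p = 0.013), so the order of the groups was the reverse. Week 2 rests on 1 animal per arm, which is assumed to vary like those of week 4.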

How the data were processed

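Nuclei from frozen retinas were sorted by DNA dye and sequenced as 10x 3-prime libraries, 4 lanes per retina. The deposited matrices hold raw UMI counts per gene and barcode, which the authors made with Cell Ranger 8.0.0 against Sscrofa11.1 with the EGFP sequence added. The smallest barcode held 500 UMIs. From these counts, nuclei were filtered per retina by a mixture model of mitochondrial share (posterior 0.75), and given 1 of 13 classes by a Poisson likelihood over 102 marker genes with a margin of at least 5 over the next class and at least 2 distinct markers. Nuclei with another class's markers at 0.25 or more of that class's level (p under 0.001) were left out, which stood in for a doublet caller, as none was run. The oligodendrocyte class was dropped because its markers were near 0. UMIs were summed per retina and class.

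At week 4 and between weeks, sums were tested with edgeR 4.0.16 (quasi-likelihood, TMM, filterByExpr) in R 4.3.3, each class apart, only the groups compared, with Benjamini-Hochberg adjustment over all genes tested and a threshold of 0.05. Class profiles were fitted to sums per vehicle animal and class, the 2 eyes of 1 animal summed and the animal as a block, and each class was set against the mean of the others. A retina and class needed at least 20 nuclei. Retinas of week 4 are 1 per animal, so p-values measure the spread between 2 animals an arm. The model fit was tested on simulated data. DESeq2 1.42.0, other normalizations, filters and gates and leaving out each retina were the alternatives. The channel genes, lists and rules were chosen with earlier results of these data known, and the genes named at week 2 after their values were seen. Genes were otherwise named where they led a class in every vehicle retina, were among the 5 largest calls a class in either direction, were called in the most classes, passed the test between weeks, or stood on a list of genes of known role. Results of some genes are not reported here by gene, though the counts of genes include them. Antisense and near-identical genes were not separated further than the deposited counts do.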

Additional observations from a re-analysis of the deposited data

Results flagged for a closer look

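In 10 pairs of a channel gene and a class, the AAV change at week 4 differed from that at week 2 by the test of the difference itself in edgeR, of which 9 are reported here, given as log2 change at week 4 minus week 2 with its SE. Week 2 has 1 animal per arm and each group was 1 batch, so a difference between animals, batches and times cannot be told apart.

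In Müller cells the values were -2.64 ± 0.52, adjusted p = 0.0402 for KCNC1, -2.45 ± 0.44, adjusted p = 0.0323 for KCNQ3 and -4.56 ± 0.94, adjusted p = 0.0452 for KCNIP3, which rests on 1 UMI in the week 4 AAV retinas. KCNC1 stood at 7.68 and 4.25 CPM in AAV and 4.26 and 5.08 in vehicle eyes at week 2, and 1.07 and 0.737 in AAV and 5.22 and 5.09 in vehicle retinas at week 4. In astrocytes they were -2.16 ± 0.41, adjusted p = 0.0227 for KCND3 and -2.21 ± 0.47, adjusted p = 0.035 for KCNIP4. KCND3 stood at 59.8 and 49.2 CPM in AAV and 31.3 and 33.8 in vehicle eyes at week 2, and 20.0 and 15.03 in AAV and 47.9 and 47.2 in vehicle retinas at week 4.

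In microglia and macrophages KCNB2 had -2.32 ± 0.48, adjusted p = 0.0395 and KCNQ3 3.39 ± 0.55, adjusted p = 0.0104. KCNB2 stood at 68.6 and 198 CPM in AAV and 120 and 101 in vehicle eyes at week 2, which overlap. At week 4 it was at 63.9 and 81.6 in AAV and 281 and 406 in vehicle retinas. KCNQ3 was lower in both AAV eyes at week 2 and higher in both AAV retinas at week 4. KCNK2 in RGCs had 2.96 ± 0.45, adjusted p = 0.013, with 10.2 and 9.55 CPM in AAV and 34.5 and 34.0 in vehicle eyes at week 2, and 27.1 and 26.6 in AAV and 17.9 and 8.26 in vehicle retinas at week 4. KCNMB4 in cones had -8.76 ± 0.39, adjusted p = 0.00123, and in cones only 0.0157% of all genes passed this test.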

How the results depend on the processing

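The count of class and gene pairs above the other classes (232) ran from 199 to 246 over the alternatives. The 23 genes named as highest in 1 class kept direction and call in all of them. They were picked as highest in these same retinas and tested against the mean of the other classes, so this does not test whether they are confined to 1 class. At week 4 the 9 higher calls became 16 with every gene of at least 1 UMI and ran from 9 to 16 when 1 retina was left out. The 54 lower calls became 35 in the stricter gate and ran from 33 to 88 when 1 retina was left out, an arm then holding 1 sample that is assumed to vary like the others. Of the 63 calls, 30 held in all 4 fits without a retina, 35 in all other alternatives in which they could be fitted and 19 in all of both, with 0 changes of sign. The stricter gate lost 19 calls and DESeq2 13. The 51 pairs past 2-fold at week 2 became 79 with right eyes only. The 10 differences between weeks became 21 with DESeq2. The cause of these shifts was not tested. Classes of few nuclei (RPE, pericytes and, in vehicle retinas, microglia) limit what depth can show. No paired analysis was possible because the numbers 1 to 4 in the labels name 10x lanes of 1 retina and no number is shared between animals of the groups.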

Other observations

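Lymphocytes were gated in number only in the week 4 AAV retinas (1058 and 834 nuclei, at most 1 nucleus in the vehicle retinas of that week), so their channels have no comparison. KCNIP4 stood at 910.2 and 899.6 CPM in these nuclei and KCNQ5 at 884 and 774 CPM. KCNB2 stood at 235 and 195 CPM, KCNMA1 at 222 and 168 and KCNAB2 at 146 and 157 CPM. In vehicle retinas KCNIP4 and KCNAB2 were highest in RGCs, KCNQ5 in amacrine cells, KCNB2 in cones and KCNMA1 in bipolar cells. The part of RNA from retinal cells in the lymphocyte levels was not tested. The two-pore-domain gene KCNK5 was at 39.5 and 37.3 CPM. KCNA3, the voltage-gated pore gene best known from T cells, was at 3.60 and 5.63 CPM on 6 and 8 UMIs, and the calcium-activated KCNN4 of the same cells had 0 UMIs in both. These genes were chosen after their values were seen.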
